A study of Mus musculus with 15 samples.

Results

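Most Prss genes of the mouse encode serine proteases of the trypsin family. Members were taken by name, as every gene of the count tables whose symbol is Prss followed only by digits, which gave 39 of the 32285 genes. The rule used only the symbol. Trypsin-like serine proteases cut a protein chain after an arginine or a lysine, using a serine that a nearby histidine and aspartate make reactive, and most are made as inactive precursors. Many lie side by side in the genome as products of gene duplication, and a large share is transcribed mainly in male germ cells, where the proteins reach the acrosome, the vesicle of enzymes over the sperm nucleus, or the surface of sperm. PRSS37 and PRSS55 are known for their part in the maturation of ADAM3, a sperm surface protein that sperm need to enter the oviduct, and PRSS21 (testisin) is held in the sperm membrane by a lipid anchor.

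Transcripts of dissociated testis cells were counted by droplet single-cell RNA-seq in 15 libraries, each from 1 testis of 1 male DBA/2J mouse, with 3 libraries in each of 5 groups. T mice were given JQ1, a small molecule that occupies the bromodomains of BRDT and the related BET proteins, at 50 mg/kg daily for 3 wk by intraperitoneal injection and were taken immediately at an age of 10 wk, and R mice were given the same course and taken 6 wk after the last dose at 16 wk. VC-T (10 wk) and VC-R (16 wk) mice were given the vehicle, DMSO diluted in a cyclodextrin solution, and UC mice (15 wk) were untreated. A single UC group served both time points, so the T and R comparisons with UC share those libraries, and in T against UC treatment cannot be told apart from the younger age.

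Values are unique molecular identifiers (UMIs, 1 per captured transcript), given as CPM (UMIs of a gene scaled to the usual counts-per-million total of that cell class in that library), with libraries always listed as replicates 1, 2 and 3. Total UMIs were 9673587 to 98724982 per library, 72362 cells were kept, and the median was 2454.5 to 4213 UMIs per cell. Cells were clustered without the Prss genes, and clusters were named from fixed markers as spermatogonia-like, spermatocyte-like (with leptotene/zygotene-like, pachytene-like and diplotene/dividing-like stages), spermatid-like (early and later round-like) and spermatozoa-like, which here are elongating and late spermatids as well as sperm. Of 71699 distinct barcodes, 663 occurred in more than 1 library. Spermatozoa-like cells numbered 1, 1 and 3 in the T libraries against 1691 to 2185 in UC, so no test of that class was made for T. The library VC-T 1 stood apart, with 0 spermatozoa-like cells against 953 and 1542 in the other VC-T libraries, and was left out of tests, with values including it given beside. The study left it out of differential expression too. The estimated share of UMIs from free RNA was 6.88% to 38.8%, highest in T 1. It was taken from spermatid and spermatozoa markers seen in spermatogonia-like cells. These were set against the summed profile of all deposited barcodes, not of empty droplets. Misnamed cells and remaining doublets would count in this share, so it and the subtraction based on it are approximate.

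Of the 39 members, 21 had more than 1000 UMIs in kept cells, from 1010 for Prss23 to 108683 for Prss39. These 21 passed the filter on low counts in at least 1 comparison. A further 12 had 7 to 355 UMIs, Prss22, Prss28 and Prss34 had 1 UMI each, and Prss1, Prss3 and Prss29 had none, for which a count of 0 allows up to 3 UMIs. Prss1 and Prss3 encode pancreatic trypsinogens and Prss28 and Prss29 the implantation proteinases of the uterus. The members lie on 11 chromosomes. Prss42, Prss44, Prss43, Prss45, Prss46 and Prss50 follow each other on the plus strand of chromosome 9 within chr9:110798166-110864629 (GRCm38), with gaps of 1444 to 10239 bases. On chromosome 14, Prss55 (chr14:64075438-64090162, minus strand) and Prss51 (chr14:64086234-64097678, plus strand) overlap by 3929 bases, and Prss52 starts 6607 bases further on. Whether counting used the strand was not stated in the sources used here, so reads in that overlap could not be assigned with certainty, and the same holds for Prss41, which overlaps Prss32 by 318 bases, and for Prss40, Prss48, Prss38, Prss23 and Prss52, each of which overlaps a non-member gene on the other strand.

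In untreated testes the 21 members formed a succession of stages. By mean CPM over the 3 UC libraries, 2 members were highest in leptotene/zygotene-like cells, 1 in pachytene-like cells, 8 in diplotene/dividing-like cells, 2 in early round-like spermatids, 6 in spermatozoa-like cluster 11 and 2 in other spermatozoa-like clusters. Spermatocyte-like clusters 18 and 25 had no stage name and are in none of these stage means. They held 266, 46 and 110 of the 668, 359 and 689 spermatocyte-like cells of the UC libraries. The small spermatozoa-like clusters 20 and 27, with 31 and 114 cells in UC, are in none of these means either. The 5 large spermatozoa-like clusters are ordered by the level of the spermatozoa markers, from cluster 11 through 0, 3 and 2 to 6. Pseudotime, a ranking of cells along the course of differentiation, also put cluster 11 first but the other 4 in the reverse order, so their order is not settled. Neither ranking used the Prss genes. Among spermatid-like clusters, pseudotime put the early round-like clusters 10 and 16 (medians 0.593 and 0.537) after the later round-like cluster 5 (0.458). It put the later round-like cluster 15 (0.313) before cluster 5, so the order of these clusters is not settled either.

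**Figure D1:**
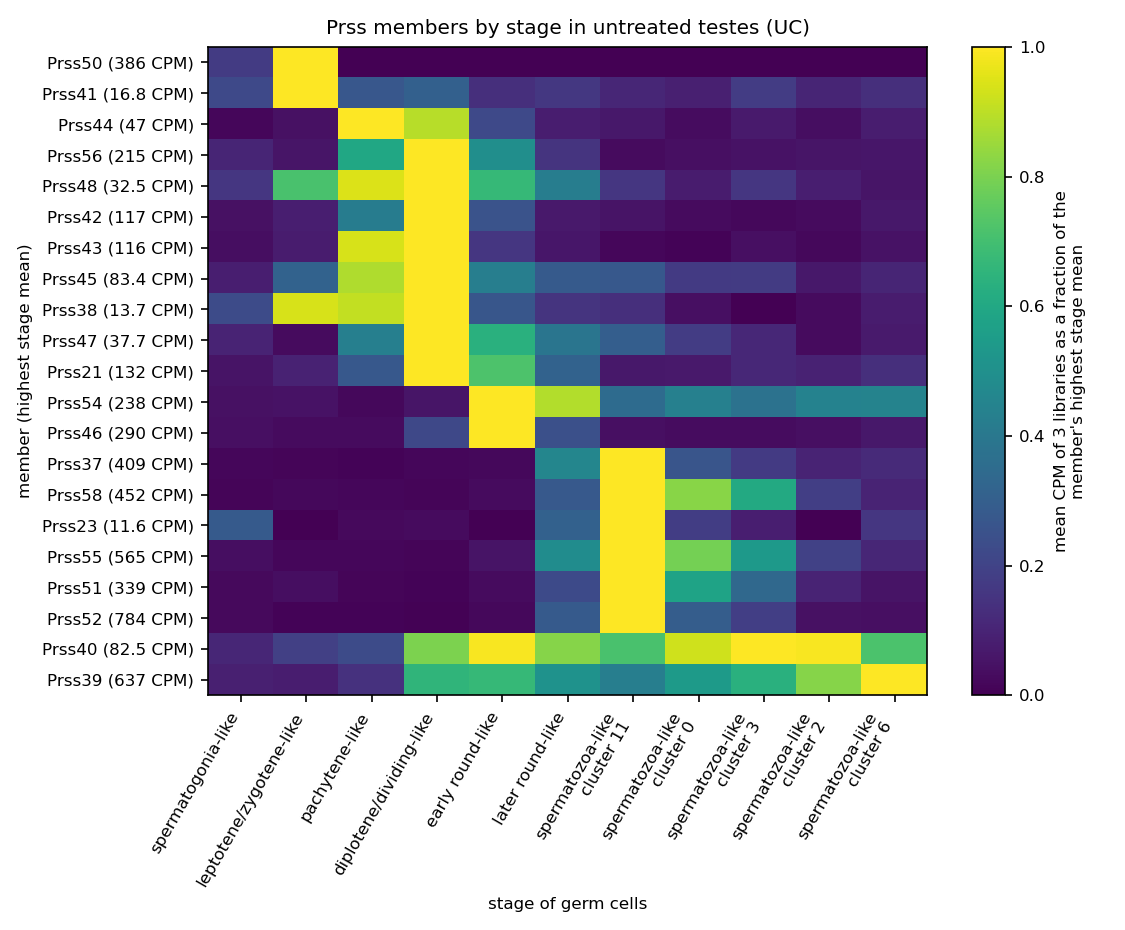
Level of the 21 members with over 1000 UMIs across germ cell stages in UC. Rows are members with the highest stage mean in CPM in brackets, columns run from spermatogonia-like cells to the 5 large spermatozoa-like clusters in the order of their marker level, and colour is the mean of 3 libraries as a share of the member's highest stage; Prss50 stands at the left, most chromosome 9 and chromosome 17 members in the middle and Prss37, Prss58, Prss51, Prss52 and Prss55 at the right.

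Prss50, which encodes the testis protein TSP50 with a threonine where the family has its catalytic serine, was the earliest member. It averaged 67.6 ± 22.0 CPM (SD, n = 3) in spermatogonia-like and 386 ± 60.2 CPM in leptotene/zygotene-like cells of UC. In pachytene-like cells it was at 0.653 CPM, and in diplotene/dividing-like and early round-like cells at 0. Prss41 was low throughout and highest in leptotene/zygotene-like cells, at 16.8 ± 5.10 CPM. Prss36, with 355 UMIs in all, was at 14.8 ± 14.1 CPM in spermatogonia-like and at 1.2 ± 0.447 CPM in spermatocyte-like cells of UC, and its spermatogonia-like values ran from 0 to 28.1 CPM, which overlaps the spermatocyte-like range.

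Of the chromosome 9 neighbours 4 stood highest in pachytene-like or diplotene/dividing-like cells, as did 5 members elsewhere. Prss44 was level between pachytene-like cells (47.0 ± 6.50 CPM) and diplotene/dividing-like cells (41.9 ± 5.91), and so was Prss43 (109 ± 6.42 and 116 ± 14.7 CPM), a difference within the SD for both. Prss42 rose later, from 49.3 ± 8.29 to 117 ± 15.2 CPM, and Prss45 stood at 73.4 ± 6.07 and 83.4 ± 14.3 CPM, again within the SD. Prss42 and Prss43 are known to be needed for male meiosis to proceed. Outside the cluster, Prss56 reached 215 ± 41.9 CPM in diplotene/dividing-like cells and Prss21 reached 132 ± 32.4 CPM, and both were still present in early round-like spermatids (106 ± 9.45 and 95.5 ± 8.06 CPM). Prss56 is known from the eye, where its loss changes the length of the eyeball. Prss47 (37.7 ± 11.8 CPM), Prss48 (32.5 ± 12.5) and Prss38 (13.7 ± 3.13) were lower at the same stage. Prss48 was as high in pachytene-like cells (30.8 ± 1.46 CPM) within the SD, and Prss38 in both leptotene/zygotene-like (12.9 ± 4.27 CPM) and pachytene-like cells (12.4 ± 5.02 CPM), so their highest stage is not set apart. Outside the germ line, Prss48 was also at 53.6 ± 33.1 CPM in Sertoli-like cells of UC, from 29 UMIs. Prss46, between Prss45 and Prss50, departed from its neighbours, with 62.6 ± 11.3 CPM in diplotene/dividing-like cells, 289.9 ± 30.6 in early round-like and 70.7 ± 6.27 in later round-like spermatids.

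**Figure D2:**
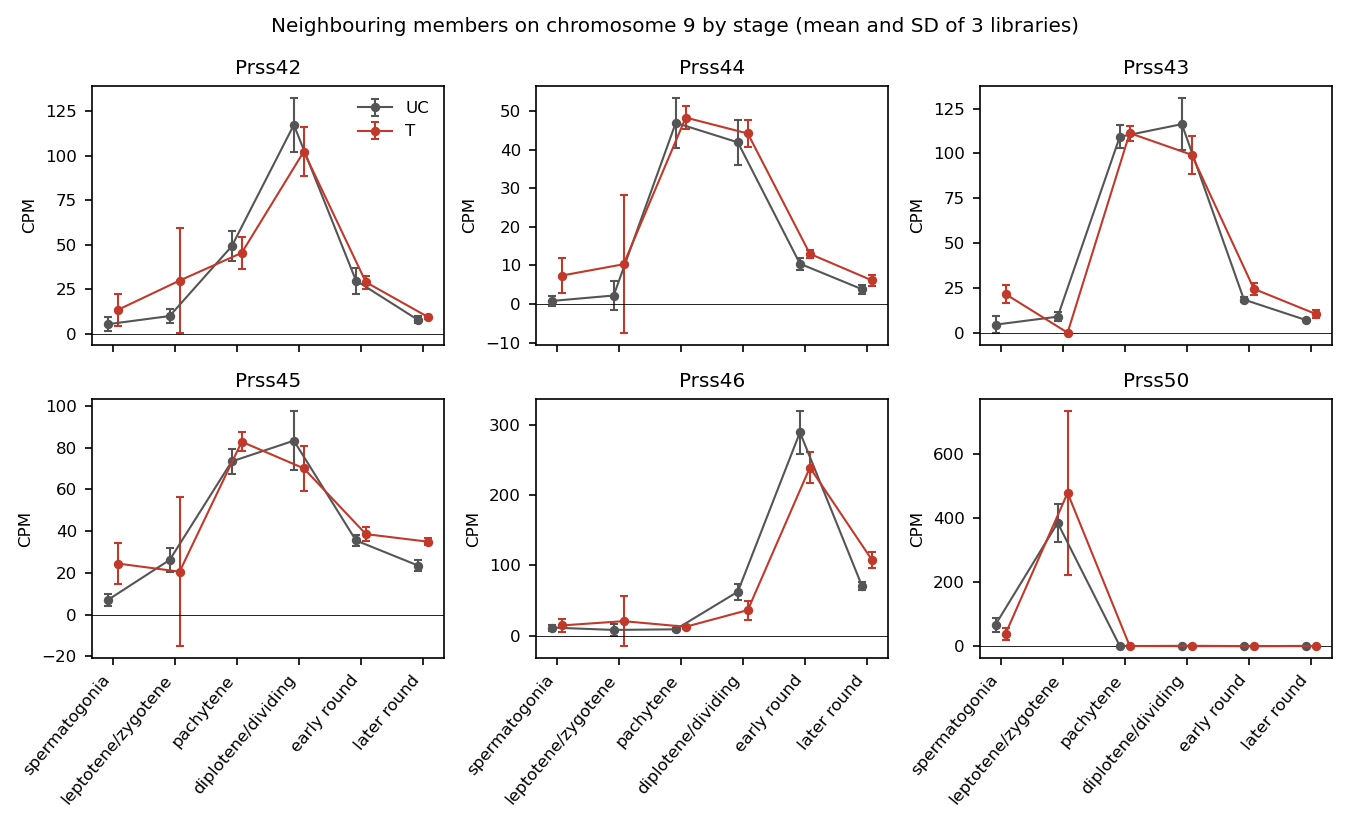
Level of the 6 neighbouring members of chromosome 9, in their order along the chromosome, by stage in UC (grey) and T (red). Points joined by lines are the mean CPM of 3 libraries and error bars 1 SD, each panel on its own axis with a line at 0, and the T values of leptotene/zygotene-like cells rest on few cells; in both groups Prss50 peaks in leptotene/zygotene-like cells, Prss42, Prss44, Prss43 and Prss45 in pachytene-like and diplotene/dividing-like cells, and Prss46 in early round-like spermatids.

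Among spermatids, Prss54, whose product sits in the acrosome and is thought to lack protease activity, stood at 238 ± 22.4 CPM in early and 209.9 ± 24.1 CPM in later round-like spermatids, and 5 members joined it only in the later stage. Prss37 went from 8.71 ± 2.90 to 188 ± 20.8 CPM between these stages and to 409 ± 24.1 CPM in cluster 11. Prss58 went from 12.5 ± 3.53 through 126 ± 20.8 to 452 ± 22.7 CPM over the same stages. The chromosome 14 trio moved alike, Prss55 from 29.6 ± 2.77 through 275 ± 14.7 to 565 ± 19.9 CPM, Prss51 from 10.0 ± 3.47 through 75.6 ± 8.30 to 339 ± 4.22, and Prss52 from 18.0 ± 5.58 through 221 ± 19.6 to 784 ± 26.3. In the other large clusters they were lower to different degrees. In cluster 0 Prss37 was at 108 ± 6.79 CPM while Prss58 stood at 372 ± 10.8 and Prss55 at 447 ± 23.8. Prss23, which encodes a secreted protease, had the same peak at a low level, 11.6 ± 2.84 CPM.

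Prss39 and Prss40, known as the testicular serine proteases TESP1 and TESP2 of the acrosome, were spread over more stages than any member above. Prss39 stood at 91.2 ± 21.7 CPM in pachytene-like, 417 ± 24.5 in diplotene/dividing-like and 428 ± 10.9 in early round-like cells and was highest in cluster 6, which had the highest level of spermatozoa markers, at 637 ± 109.6 CPM. Prss40 lay between 58.7 and 82.5 CPM from diplotene/dividing-like cells on. Outside these stages Prss39 was also at 54.9 ± 19.4 CPM in spermatogonia-like and 205 ± 133 CPM in Sertoli-like cells of UC, and the part of free RNA in these values was not tested. For the later members the level in spermatogonia-like cells of UC, which should lack them, was 6.05 CPM for Prss58, 7.76 for Prss37, 8.35 for Prss51, 18.8 for Prss52 and 21.1 for Prss55. Their levels in early round-like spermatids were no more than 29.6 CPM, beside that background.

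These stage differences were tested on UMIs summed per library and class with edgeR's quasi-likelihood test, on the TMM scale (which sets libraries level on the bulk of genes), with the library as a block and Benjamini-Hochberg adjustment over all genes tested. A gene was called at an adjusted p under 0.05 and a log2 fold change beyond 1 in either direction. From spermatogonia-like to spermatocyte-like cells, 11 of 20 members tested were called higher, where 30.9% of all genes were, and Prss50 alone was called lower, where 28.2% were. Prss44 had the largest log2 fold change, 5.60 (SE 0.72, adjusted p = 1.12e-07), and Prss50 fell by 1.13 (SE 0.35, adjusted p = 0.00546). From spermatocyte-like to spermatid-like cells, 9 of 20 were higher (background 34.9%), led by Prss54 at 4.54 (SE 0.58, adjusted p = 0.00485) and Prss37 at 4.17 (SE 0.92, adjusted p = 0.0179), and 7 were lower (background 31.5%), Prss50, Prss43, Prss44, Prss42, Prss38, Prss56 and Prss45, from -5.01 to -1.02. From spermatid-like to spermatozoa-like cells, 8 of 19 were higher (background 24.3%) and Prss46 and Prss56 were lower (background 26.7%), with Prss58 at 3.05 (SE 0.08, adjusted p = 1.95e-126) and Prss46 at -2.24 (SE 0.11, adjusted p = 1.85e-61).

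The scale matters for that last step. The TMM values of the members lay a median of 1.40 log2 units above the ratios of CPM, and Prss40, at 72.2 ± 4.19 and 73.6 ± 3.64 CPM, was called at 1.42. No called member had the opposite sign on the CPM scale in any of the 3 steps. Of the 16 members called from spermatocyte-like to spermatid-like cells, 8 were called after an approximate subtraction of free RNA, 9 without UC 2 and 10 without UC 3.

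Promoter windows are shown for 4 members that differ in when they rise, Prss37 and Prss58 of the later spermatids and Prss46 and Prss54 of the early round spermatids. The windows are those of NCBI RefSeq (GRCm38.p6), 250 bases before and 50 bases after the start of the gene, read 5′ to 3′ on the strand of the gene. They are chr6:40519459-40519758 (minus strand) for Prss37, chr6:40900338-40900637 (minus) for Prss58, chr9:110844256-110844555 (plus) for Prss46 and chr8:95575558-95575857 (minus) for Prss54. GENCODE places Prss54 at chr8:95559069-95576340, with its start further upstream. By that start the Prss54 window lies inside the gene and does not cover its promoter. Capitals mark the matches of the motifs searched.
Prss37: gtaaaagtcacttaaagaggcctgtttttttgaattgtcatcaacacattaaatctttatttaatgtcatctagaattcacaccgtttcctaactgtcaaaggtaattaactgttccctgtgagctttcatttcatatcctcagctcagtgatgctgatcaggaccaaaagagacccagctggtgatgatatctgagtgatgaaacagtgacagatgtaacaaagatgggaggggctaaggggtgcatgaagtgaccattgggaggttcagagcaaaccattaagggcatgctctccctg
Prss58: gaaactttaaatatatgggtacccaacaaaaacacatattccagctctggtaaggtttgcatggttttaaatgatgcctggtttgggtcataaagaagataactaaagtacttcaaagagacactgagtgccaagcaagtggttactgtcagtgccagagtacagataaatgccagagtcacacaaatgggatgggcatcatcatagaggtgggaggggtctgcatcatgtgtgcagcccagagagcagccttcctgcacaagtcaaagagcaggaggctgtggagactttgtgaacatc
Prss46: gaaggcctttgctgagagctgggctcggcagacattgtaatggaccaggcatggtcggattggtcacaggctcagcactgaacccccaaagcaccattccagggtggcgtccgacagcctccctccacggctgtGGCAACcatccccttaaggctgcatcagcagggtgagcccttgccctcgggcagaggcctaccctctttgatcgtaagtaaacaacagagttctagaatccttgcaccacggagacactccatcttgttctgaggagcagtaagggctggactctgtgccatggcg
Prss54: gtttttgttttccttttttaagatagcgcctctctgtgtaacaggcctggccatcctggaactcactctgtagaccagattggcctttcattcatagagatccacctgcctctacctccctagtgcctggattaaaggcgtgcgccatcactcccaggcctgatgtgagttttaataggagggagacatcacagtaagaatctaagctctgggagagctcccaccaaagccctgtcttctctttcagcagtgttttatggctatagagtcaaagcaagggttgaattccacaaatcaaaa
The letters searched on both strands were TGACGT, a half-site of the cAMP response element bound by CREM in spermatids, GTTGCC, a half-site of RFX factors, and CAGTTG, a core of MYB factors. Of the 4 windows, that of Prss46 holds 1 match, GGCAAC, the RFX half-site on the other strand. Over the 29 members with a window, the RFX half-site occurred in 3 (Prss46, Prss47 and Prss21), the CRE half-site in 2 (Prss28 and Prss29) and the MYB core in 4 (Prss3, Prss23, Prss34 and Prss29), against 12.5%, 7.51% and 13.7% of all 32851 windows.

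JQ1 treatment was compared with both controls to ask which members differ once the late cells are missing. In spermatid-like cells 5 members fell, Prss58, Prss52, Prss51, Prss37 and Prss55, each of which was higher in later than in early round-like spermatids of UC. They were called lower of 19 tested in T against UC, where 13.5% of all genes were lower, and none was called higher, where 3.17% were. All 5 lie at 2 places, the pair on chromosome 6 separated by 375761 bases and the trio on chromosome 14.

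Prss58 was at 5.43, 4.73 and 5.55 CPM in T, 5.05, 122 and 86.0 in VC-T, 89.3, 73.7 and 77.0 in R, 72.4, 68.9 and 108 in VC-R and 77.5, 112 and 77.0 in UC. The 3 T libraries and VC-T 1 were low and did not overlap the other 11. The log2 fold change was -4.32 (SE 0.20, adjusted p = 2.83e-09) against UC and -4.57 (SE 0.17, adjusted p = 6.97e-07) against VC-T, a 20-fold difference from UC. Prss37 was at 22.5, 9.28 and 7.63 CPM in T, 14.5, 157 and 144 in VC-T, 119.9, 119 and 122 in R, 111, 135 and 156 in VC-R and 121, 155 and 109.6 in UC. Here T 1 lay above T 2 and T 3, and again the T libraries and VC-T 1 stood below all others. The log2 fold change of Prss37 was -3.35 (SE 0.41, adjusted p = 0.00206) against UC and -3.64 (SE 0.32, adjusted p = 3.41e-05) against VC-T.

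On chromosome 14, Prss51 was at 4.54, 4.20 and 2.77 CPM in T, 2.39, 73.9 and 58.0 in VC-T, 68.7, 57.2 and 61.8 in R, 57.3, 42.9 and 54.4 in VC-R and 48.8, 62.6 and 50.0 in UC. Its log2 fold change was -3.95 (SE 0.19, adjusted p = 1.29e-09) against UC and -4.27 (SE 0.19, adjusted p = 6.97e-07) against VC-T. Prss52 was at 15.0, 8.05 and 7.98 CPM in T, 6.18, 189 and 143 in VC-T, 141, 120.0 and 132 in R, 109, 121 and 136 in VC-R and 144, 177 and 138 in UC, and changed by -4.01 (SE 0.23, adjusted p = 1.15e-06) and -4.17 (SE 0.22, adjusted p = 2.05e-06). Both had T libraries apart from all controls but VC-T 1. Prss55 was at 71.9, 51.8 and 38.5 CPM in T, 49.5, 228 and 190.0 in VC-T, 169, 158 and 158 in R, 157, 191 and 205 in VC-R and 194, 219 and 167 in UC. It fell less than the other 4, by a log2 fold change of -2.02 (SE 0.24, adjusted p = 5.80e-04) against UC and -2.17 (SE 0.20, adjusted p = 2.46e-05) against VC-T, and all T libraries kept at least 38.5 CPM.

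**Figure D3:**
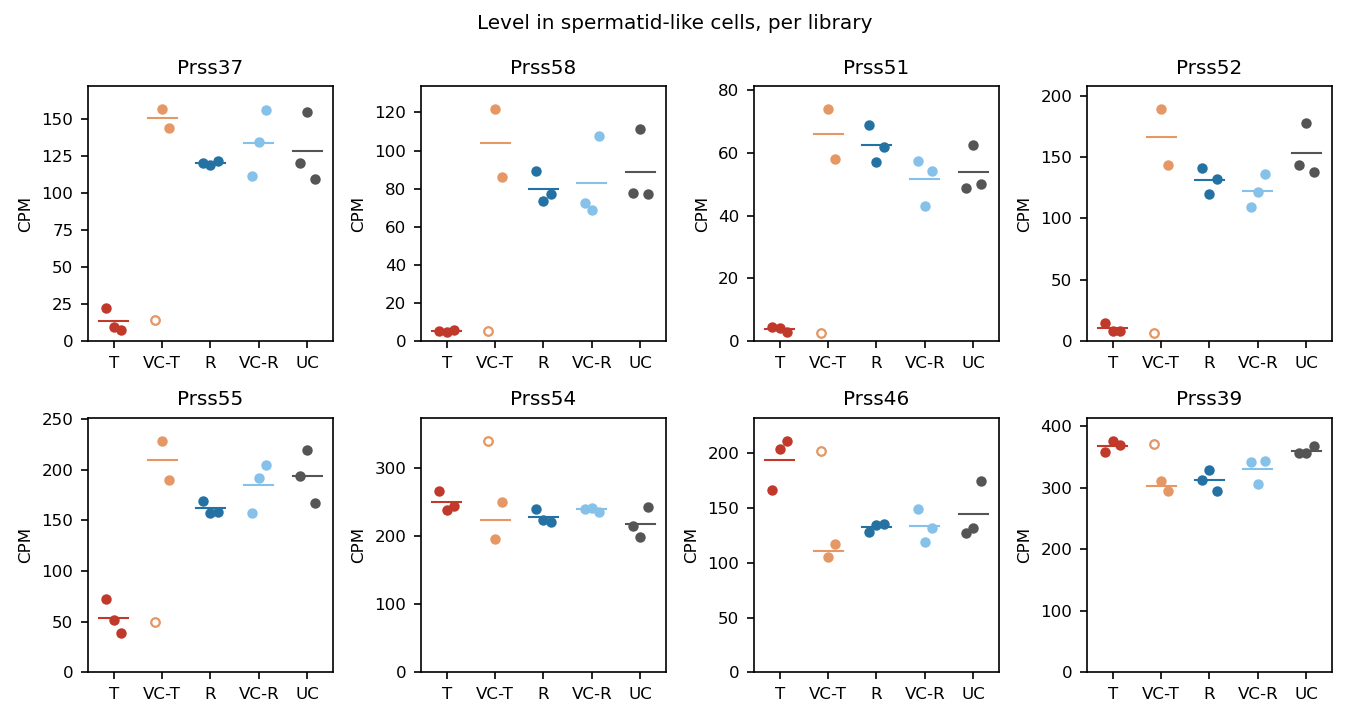
Level of 8 members in spermatid-like cells, in CPM on a linear axis from 0, by group. Each point is 1 library, lines are the group means, and the open circle is VC-T 1, which is left out of the VC-T mean; in the panels of Prss37, Prss58, Prss51, Prss52 and Prss55 the T points lie below every control except VC-T 1, while Prss54, Prss46 and Prss39 show no such gap.

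The other members tested in spermatid-like cells, 14 in T against UC, had log2 fold changes of -0.58 to 0.97 and were not called. Prss54 was at 267, 239 and 244 CPM in T, 341, 196 and 251 in VC-T, 239.7, 225 and 222 in R, 241, 242 and 236 in VC-R and 215, 199 and 243 in UC, with overlapping groups and a log2 fold change of -0.05 (SE 0.08, adjusted p = 0.64) against UC. Prss46 was at 167, 204 and 212 CPM in T, 202, 105 and 117 in VC-T, 128, 134 and 136 in R, 149.6, 119 and 132 in VC-R and 128, 132 and 174 in UC, and changed by 0.17 (SE 0.11, adjusted p = 0.223) against UC and 0.53 (SE 0.13, adjusted p = 0.00998) against VC-T, under the fold threshold in both. So Prss54 and Prss46, which in UC were already high in early round-like cells, did not fall beyond the threshold. Prss39 stood at 357, 376 and 369 CPM in T, 371, 309.9 and 294 in VC-T, 312, 328 and 295 in R, 341, 306 and 343 in VC-R and 356, 356 and 368 in UC, a log2 fold change of -0.21 (SE 0.06, adjusted p = 0.0104) against UC, and Prss40 at 84.5, 77.0 and 78.0 CPM in T, 93.2, 72.0 and 63.2 in VC-T, 69.9, 66.7 and 62.6 in R, 68.8, 81.3 and 76.2 in VC-R and 73.8, 67.4 and 75.3 in UC, one of -0.09 (SE 0.09, adjusted p = 0.428). On the CPM scale the T means of Prss39 and Prss40 were not below those of UC, as the fitted values of the members lay a median of -0.24 log2 units from the ratios of CPM.

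In T against VC-T, with VC-T 1 left out, 6 of 20 members tested were lower and 1 higher, where 16.2% and 2.6% of all genes were. The 6 were the same 5 and Prss23. Prss23 was at 0.997, 0.525 and 1.04 CPM in T, 0.983, 5.83 and 7.02 in VC-T, 7.46, 4.85 and 5.15 in R, 5.73, 4.98 and 3.58 in VC-R and 2.03, 2.68 and 2.45 in UC, with 9, 3 and 3 UMIs in the T libraries, and changed by -3.13 (SE 0.37, adjusted p = 1.06e-04). Against UC it did not pass the filter on low counts. Prss41 was the member called higher, at 7.20, 7.18 and 3.81 CPM in T, 3.23, 1.78 and 2.94 in VC-T, 2.93, 3.51 and 2.89 in R, 3.62, 2.85 and 3.58 in VC-R and 1.69, 2.41 and 3.77 in UC, with 65, 41 and 11 UMIs in T, a log2 fold change of 1.26 (SE 0.39, adjusted p = 0.0249) against VC-T and of 0.97 (SE 0.32, adjusted p = 0.02) against UC, which is under the fold threshold. DESeq2 called the 6 lower members and not Prss41 against VC-T. The 2 VC-T libraries tested differed in their share of clusters of few UMIs per cell. Without those clusters, 349 of 1589 spermatid-like cells were left in VC-T 2 and 635 of 744 in VC-T 3. In T, 1977, 1275 and 764 of 2137, 1349 and 835 were left. In these cells 7 of 20 members were called in either direction against VC-T, where 23.6% of all genes were. With all 3 VC-T libraries no member was called, nor was any other gene. The log2 fold changes of the 5 members were then -4.03 for Prss58, -3.75 for Prss51, -3.68 for Prss52, -3.21 for Prss37 and -1.77 for Prss55, with adjusted p of 0.155 to 0.167 by edgeR.

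**Figure D4:**
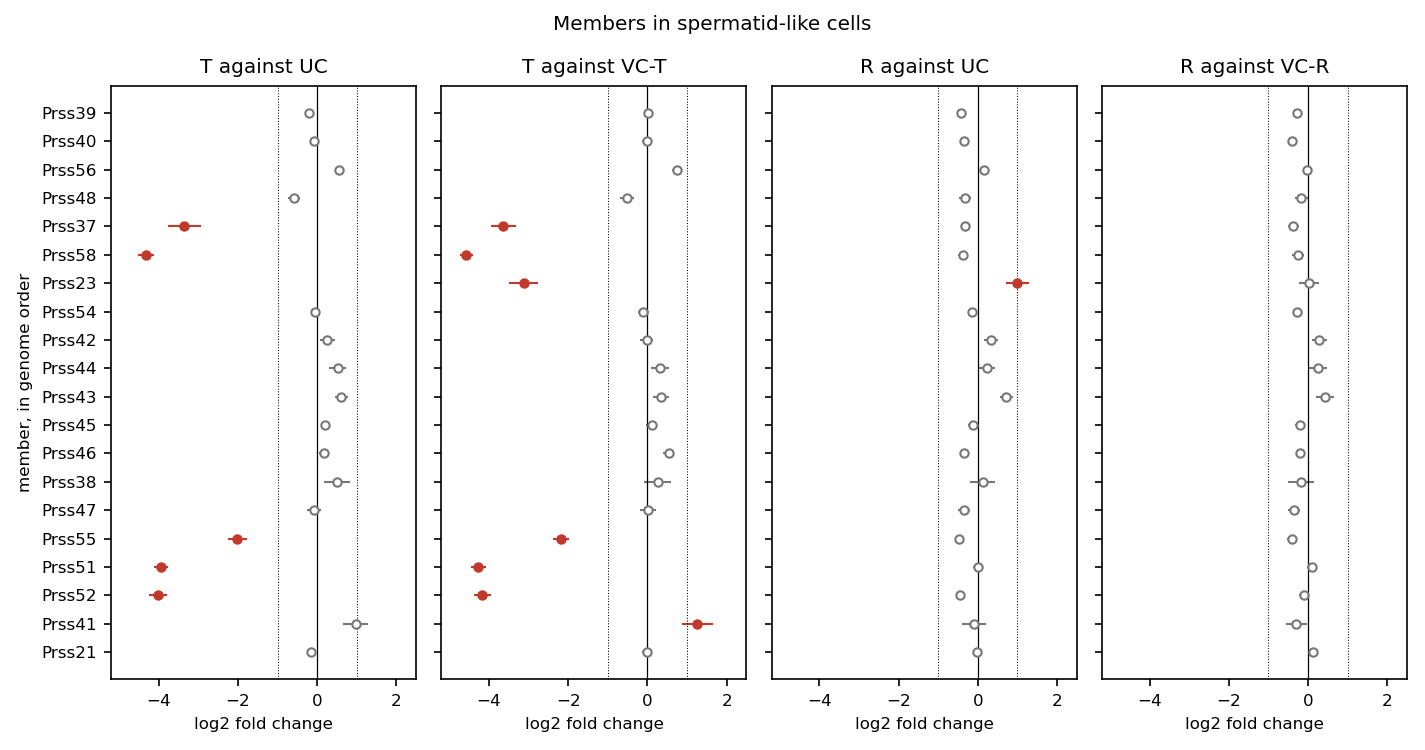
Log2 fold change of each member in spermatid-like cells for T against UC, T against VC-T (without VC-T 1), R against UC and R against VC-R. Points are edgeR estimates, bars are 1 SE, filled points are called, and dotted lines mark a log2 fold change of 1 in either direction; 5 members lie between -4.57 and -2.02 in both T panels, and in the R panels Prss23 is the single called member, in R against UC.

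The spermatid-like class of T held fewer late steps than that of UC, so the 5 members were compared again within narrower sets of cells. Cluster 19, the later round-like cluster of most UMIs, held 41 cells in the T libraries together and 436 in UC, while the largest later round-like cluster, cluster 5, held 1321 and 583. Within cluster 5 alone, where 3.06% of all genes were called in either direction, Prss58 and Prss52 were still called lower. Prss58 was at 4.71, 5.28 and 6.31 CPM in T and 19.2, 14.6 and 12.8 in UC, a log2 fold change of -1.64 (SE 0.33, adjusted p = 1.77e-04). Prss52 was at 19.7, 14.8 and 7.57 CPM in T and 40.4, 30.9 and 47.8 in UC, a change of -1.38 (SE 0.21, adjusted p = 2.28e-06). The T and UC libraries did not overlap for either gene. In VC-T, cluster 5 was at 2.96, 11.6 and 14.7 CPM for Prss58 and 7.41, 26.2 and 37.1 for Prss52. Spermatogonia-like cells, which should lack both transcripts, were at 0, 4.10 and 14.1 CPM of Prss58 in UC and at 0 in each T library, and at 29.4, 8.20 and 18.7 CPM of Prss52 in UC and 4.07, 2.27 and 3.04 in T. The part of free RNA in the difference within cluster 5 was not tested.

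The other 3 lost their call there. Prss37 was at 31.5, 15.8 and 10.1 CPM in T and 49.4, 38.2 and 36.3 in UC, without overlap, at -0.90 (SE 0.26, adjusted p = 0.0197). Prss55 was at 135, 125 and 106 and 144, 148 and 135 CPM, at -0.26 (SE 0.10, adjusted p = 0.0568), and Prss51 at -0.37 (SE 0.35, adjusted p = 0.493). The same pair was called when 330 cells per library were drawn to match on pseudotime, with -1.68 for Prss58 and -1.38 for Prss52 (background 2.58% in either direction), while Prss37 was at -0.89, Prss51 at -0.51 and Prss55 at -0.11. In the largest early round-like cluster no member was called by edgeR, where 1.49% of genes were, and Prss55 was the only one of the 5 to pass the filter, at -0.76 (SE 0.38, adjusted p = 0.237). Over all early round-like clusters all of the 5 but Prss37 were called lower (background 4.38% in either direction). Over all later round-like clusters all 5 were called lower and Prss38 higher (background 16.3% in either direction). Clusters 10 and 16, which pseudotime put after cluster 5, gave the early set 121 and 100 cells in UC and 127 and 96 in T. That set held 200, 209 and 473 cells in the UC libraries and 1338, 924 and 615 in the T libraries. Clusters 10 and 16 were therefore a larger share of it in UC than in T. Early round-like and spermatogonia-like levels in UC were 18.0 and 18.8 CPM for Prss52 and 10.0 and 8.35 for Prss51. They were 12.5 and 6.05 for Prss58 and 29.6 and 21.1 for Prss55. The part of these clusters and of free RNA in the early calls was not tested. In a sum over a class, fewer cells at the step that makes a transcript and less of it per cell cannot be told apart.

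**Figure D5:**
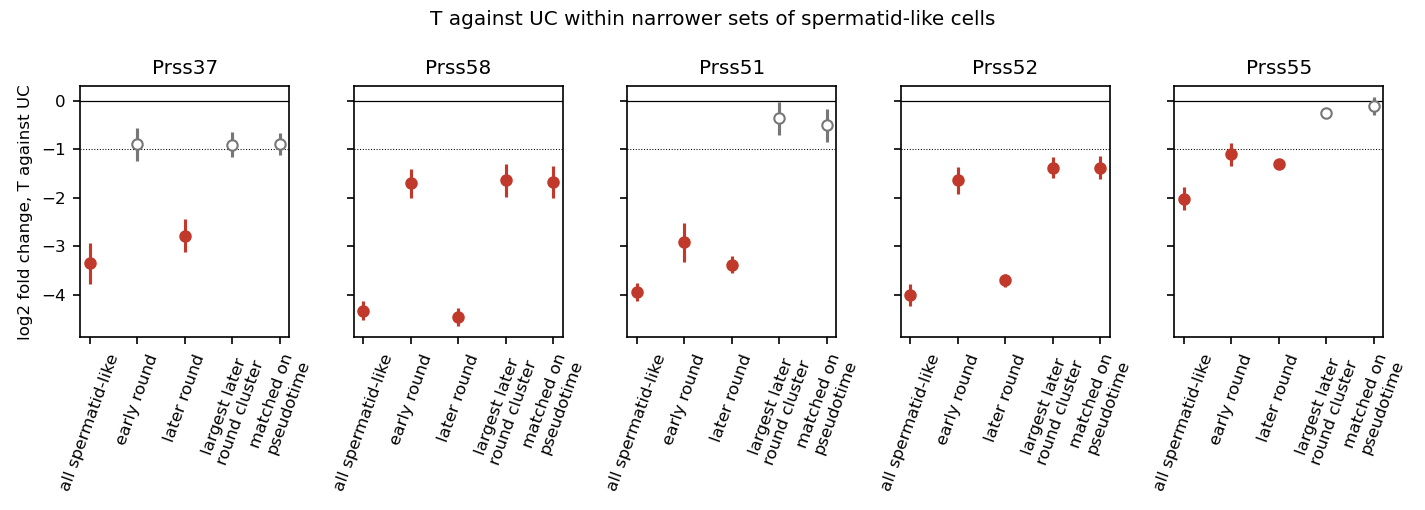
Log2 fold change of T against UC for the 5 members within all spermatid-like cells, the early and later round-like clusters, the largest later round-like cluster and cells matched on pseudotime. Points are edgeR estimates, bars are 1 SE, filled points are called, and the dotted line is -1; Prss58 and Prss52 stay below -1 in every set, while Prss55 ends at -0.26 and -0.11 in the last pair of sets.

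In spermatocyte-like cells the meiotic members showed no call. None of 20 members was called in T against UC by edgeR, where 0.758% of all genes were, with 5 at an unadjusted p under 0.05 and 6 called by DESeq2 (Prss50, Prss37, Prss51, Prss52, Prss55 and Prss58). Prss43 was at 105, 112 and 116 CPM in T, 110.4, 97.9 and 101 in VC-T, 102, 92.7 and 96.6 in R, 100.2, 90.6 and 84.6 in VC-R and 83.0, 110.2 and 103 in UC, with T overlapping VC-T and UC and lying above R and VC-R, and a log2 fold change of 0.06 (SE 0.09, adjusted p = 0.758). Prss42 was at 65.2, 73.6 and 53.7 CPM in T, 65.5, 75.0 and 77.0 in VC-T, 70.9, 71.2 and 70.3 in R, 74.3, 50.1 and 75.4 in VC-R and 60.4, 64.4 and 73.4 in UC, one of -0.15 (SE 0.13, adjusted p = 0.587).

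Prss44 was at 45.6, 51.5 and 46.7 CPM in T, 53.4, 45.2 and 46.7 in VC-T, 45.7, 43.6 and 45.1 in R, 48.4, 49.9 and 40.7 in VC-R and 34.4, 40.3 and 50.6 in UC and Prss45 at 77.7, 78.7 and 77.0 CPM in T, 70.3, 68.3 and 65.8 in VC-T, 64.7, 67.6 and 68.4 in R, 58.7, 71.1 and 65.5 in VC-R and 73.1, 68.1 and 72.8 in UC, with log2 fold changes of 0.09 and 0.01 against UC. Prss56 stood at 161, 177 and 164 CPM in T, 135, 157 and 158 in VC-T, 156, 174 and 175 in R, 172, 126 and 170.2 in VC-R and 141, 156 and 167 in UC, at 0.01, and Prss21 at 63.5, 68.6 and 59.8 CPM in T, 68.9, 74.0 and 81.9 in VC-T, 78.0, 82.7 and 82.2 in R, 99.6, 55.3 and 74.3 in VC-R and 73.8, 57.6 and 89.6 in UC, at -0.32. These 4 meiotic members lay between -0.32 and 0.09. Prss47 was at 20.9, 24.9 and 25.9 CPM in T, 23.3, 23.1 and 22.5 in VC-T, 20.7, 25.0 and 21.3 in R, 24.0, 15.1 and 19.5 in VC-R and 20.8, 18.3 and 25.2 in UC and Prss38 at 11.8, 11.3 and 10.1 CPM in T, 9.41, 11.1 and 12.2 in VC-T, 11.1, 10.6 and 10.6 in R, 9.15, 9.22 and 10.6 in VC-R and 14.0, 11.9 and 9.64 in UC. Prss48, at 21.9, 25.6 and 24.2 CPM in T, 31.1, 32.2 and 31.9 in VC-T, 31.4, 32.1 and 30.7 in R, 30.1, 33.4 and 34.3 in VC-R and 28.5, 31.9 and 32.6 in UC, was lower in each T library than in each UC library, at -0.48 (SE 0.11, adjusted p = 0.0761) against UC and -0.52 (SE 0.14, adjusted p = 0.0422) against VC-T, under the fold threshold.

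Prss50 was the exception among the early members. In spermatocyte-like cells it was at 2.25, 0.667 and 2.97 CPM in T, 1.57, 51.7 and 21.9 in VC-T, 7.31, 11.3 and 13.4 in R, 8.21, 13.6 and 15.2 in VC-R and 8.98, 21.4 and 29.5 in UC, with T and VC-T 1 below the rest, and changed by -3.52 (SE 0.64, adjusted p = 0.0687) against UC and -4.44 (SE 0.54, adjusted p = 0.0063) against VC-T. The class held 23, 10 and 14 leptotene/zygotene-like cells in the T libraries, 38, 50 and 122 in UC and 15, 123 and 126 in VC-T. Within leptotene/zygotene-like cells Prss50 was at 773, 295 and 371 CPM in T, from 25, 5 and 12 UMIs, and at 342, 361 and 454 CPM in UC. There the groups overlapped and the T mean was not lower. In spermatogonia-like cells, where 3 members passed the filter and none was called (1.66% of all genes were, 1 member was at an unadjusted p under 0.05 and DESeq2 called 0), Prss50 was at 23.1, 31.8 and 60.8 CPM in T and 68.7, 45.1 and 89.0 in UC, overlapping, at -0.97 (SE 0.37, adjusted p = 0.193).

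Against VC-T, 4 of 20 members were called lower in spermatocyte-like cells, where 3.57% of all genes were, and none higher, where 0.891% were. Beside Prss50 they were Prss51 (-3.21 (SE 0.54, adjusted p = 0.00379)), Prss52 (-3.14 (SE 0.41, adjusted p = 9.23e-04)) and Prss58 (-1.57 (SE 0.28, adjusted p = 0.00467)), the members of later spermatids. Their levels in this class were low. Prss51 was at 0.436, 0.167 and 0.594 CPM in T and 3.08 and 3.43 in VC-T 2 and 3, which in spermatogonia-like cells of those 2 libraries was 4.76 and 5.00 CPM. For Prss58 the VC-T values were 9.08 and 7.93 CPM in spermatocyte-like and 10.7 and 10.0 in spermatogonia-like cells. Both stood no higher in spermatocyte-like than in spermatogonia-like cells of those libraries. Prss52 was at 9.25 and 6.00 CPM in spermatocyte-like and 5.95 and 6.67 in spermatogonia-like cells, higher in VC-T 2 and lower in VC-T 3. With free RNA subtracted the log2 fold change of Prss58 was 7.00, of the opposite sign. With all 3 VC-T libraries no member was called. In T against UC Prss52 was highest in UC 1, at 48.8, 6.10 and 7.18 CPM against 1.38, 0.584 and 0.594 in T, and without UC 1 the same 4 members were called. With the replicate number as a block, 5 members were called lower in T against UC, Prss37, Prss50, Prss51, Prss52 and Prss58. Same-numbered libraries deviated together in that comparison, but the labels number mice within each group and state no pairing. In cells matched on pseudotime, 338 per library, Prss52, Prss55 and Prss58 were lower and Prss54 higher (-2.64, -1.44, -1.22 and 1.04, background 3.79% in either direction). In pachytene clusters alone Prss52 and Prss58 were lower (-2.69 and -1.56, background 4.66% in either direction).

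Recovery was compared with UC and VC-R to ask whether the levels return 6 wk after the last dose. In spermatid-like cells none of the 5 members that were lower in T was called in R against UC. Their log2 fold changes were -0.31 for Prss37, -0.37 for Prss58, -0.0035 for Prss51, -0.44 for Prss52 and -0.48 for Prss55, and the R and UC libraries overlapped for each. Adjusted p by edgeR was 6.46e-04 for Prss55 and 0.00136 for Prss52. The fitted values of the members lay a median of -0.22 log2 units from the ratios of CPM here too, and those ratios were -0.26 for Prss55, -0.22 for Prss52 and 0.22 for Prss51. Against VC-R they were -0.37, -0.25, 0.09, -0.11 and -0.40 in the same order.

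The single call among 20 members in R against UC was Prss23, higher at 1.00 (SE 0.29, adjusted p = 0.00825), where 6.85% of all genes were higher and 0.136% lower. It sat at the fold threshold, was at 0.03 against VC-R, and was not called without the clusters of few UMIs (0.97 (SE 0.32, adjusted p = 0.0652), where 0.515% of all genes were). Those clusters were mostly R cells. Without them, 464, 646 and 581 of the 1856, 2063 and 4478 spermatid-like cells were left in the R libraries. In UC, 461, 485 and 734 of 587, 568 and 938 were left. Most spermatid-like cells of R, but not of UC, were thus in clusters of few UMIs. None of the 20 members tested was called in R against UC without these clusters. In the early round-like clusters alone, which in R held 2123 and 1342 cells of clusters 10 and 16 against 121 and 100 in UC, all 5 members were higher in R, from 1.2 for Prss58 to 2.49 for Prss37 (background 17.6% in either direction). Pseudotime put clusters 10 and 16 after the later round-like cluster 5, so this set in R is not settled as an early stage. In the largest early round-like cluster Prss52 was at 1.19 (SE 0.43, adjusted p = 0.176) and Prss55 at 0.43 (SE 0.37, adjusted p = 0.699), and no member was called by edgeR, where 0.311% of all genes were.

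In R against UC no member was called by edgeR or DESeq2 for spermatocyte-like cells (20 tested) or spermatozoa-like cells (19 tested). The same held in R against VC-R for spermatid-like cells (20 tested) and spermatozoa-like cells (19 tested). Of all genes, 0%, 0.861%, 6.01% and 0% were called by edgeR in these comparisons, in this order. Members at an unadjusted edgeR p under 0.05 numbered 0, 6, 6 and 5 in the same order. Beside them were 1228 of 13899, 2663 of 12312, 6231 of 14784 and 1880 of 12249 of all genes. In spermatozoa-like cells Prss55 was at 309, 320.0 and 291 CPM in R and 332, 342 and 318 in UC, and Prss37 at 116, 129.9 and 114 and 138, 129 and 128. The groups overlapped for both. Prss58, at 238, 246 and 210.0 and 290.0, 266 and 272 CPM, did not overlap and changed by -0.30 (SE 0.07, adjusted p = 0.00229).

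The change at the treatment time was set against the change at recovery in 1 model, (T minus VC-T) minus (R minus VC-R), in spermatid-like cells. Of 20 members 6 were lower, where 20.3% of all genes were, and 1 higher, where 3.03% were. The differences were -4.30 (SE 0.22, adjusted p = 6.57e-10) for Prss51, -4.26 (SE 0.27, adjusted p = 5.81e-09) for Prss58, -4.00 (SE 0.25, adjusted p = 5.81e-09) for Prss52 and -3.20 (SE 0.35, adjusted p = 6.06e-06) for Prss37. Prss55 differed by less, -1.71 (SE 0.25, adjusted p = 3.73e-05), and Prss23 by -3.10 (SE 0.45, adjusted p = 4.40e-05). The higher member was Prss41, at 1.64 (SE 0.46, adjusted p = 0.00824). With all 3 VC-T libraries no member was called.

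Other serine proteases, serine protease inhibitors and genes of ADAM3 maturation and sperm migration were counted from lists. Of 10 other serine proteases 9 were in the tables and 5 were tested in T against UC, spermatid-like, with 1 lower, 0 higher and a median log2 fold change of -0.26, beside 0.05 for all genes, where 13.5% were called lower and 3.17% higher. The lower gene was Klk1, a tissue kallikrein, at -3.61 (SE 0.39, adjusted p = 1.69e-06), while Acr, the acrosomal protease acrosin, was at -0.19. Of 14 serine protease inhibitors 4 were tested, with 1 higher, 0 lower and a median of 0.22. The higher one was Eppin, a sperm surface inhibitor, at 1.21 (SE 0.18, adjusted p = 4.23e-05). Of 14 genes of ADAM3 maturation and sperm migration 13 were tested, with 2 lower, 0 higher and a median of -0.23. These were Calr3, a testis chaperone, at -2.30 (SE 0.15, adjusted p = 5.33e-07) and Pmis2 at -1.15 (SE 0.13, adjusted p = 7.69e-05). Adam3 itself was at -0.23. The 2 of 13 are close to the share of all genes called lower. Against VC-T the counts were 2 lower of 6 other serine proteases (Klk1 and Tmprss2), 0 of 4 inhibitors in either direction, with Eppin at 0.98 (SE 0.19, adjusted p = 0.0023), under the fold threshold, and again 2 lower of 13 for ADAM3 maturation.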

How the data were processed

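Single cells of 15 mouse testis libraries were measured with the 10x Genomics 3′ chemistry. Per the labels, the authors counted UMIs with Cell Ranger 3.0.0 against mm10, and the deposited values are raw counts of UMIs per gene and barcode, before any correction for free RNA; whether introns or strand were used was not given in the sources used here. The members and lists were chosen with earlier results of these data known. A cell was kept at 500 genes, 1000 UMIs and a mitochondrial share below 30%, the top 5.4% by Scrublet score left each library, and 2000 variable genes, without the Prss genes, gave 30 principal components, 20 neighbours and Leiden clusters at resolution 1.2 (scanpy 1.11.5). How markers set the stage names was settled after the data were seen. Per library values are given for members called in a comparison or at 50 CPM or more in a UC germ cell class. UMIs were summed per library and class with at least 10 cells and fitted with edgeR 4.0.16. On simulated data it recovered 92.2% to 100% of genes with a log2 fold change of 2, with 3 to 16 false calls per comparison. Only genes over 10 CPM were changed there, and all genes had the same spread between libraries. The recovery of members at lower levels was not tested. Alternatives were DESeq2 1.42.0, RLE scaling, no filter, doublets kept, subtraction of free RNA, narrower cell sets, the replicate block and leaving out libraries. Same-numbered libraries of T and UC deviated together in spermatocyte-like cells (r = 0.75, 0.48 and 0.17 over 8226 genes, which are not independent), and in no other comparison was every such r over 0.1. Each library is 1 mouse. Depth limits precision to counting error and the spread of 3 mice. Gene positions are from GENCODE (GRCm38) and promoter windows from NCBI RefSeq.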

Additional observations from a re-analysis of the deposited data

Results flagged for a closer look

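The change under JQ1 differed from the change at recovery for 7 members in spermatid-like cells, by edgeR's test of the difference, log2 fold change of T against VC-T minus that of R against VC-R. It was -4.30 (SE 0.22, adjusted p = 6.57e-10) for Prss51, -4.26 (SE 0.27, adjusted p = 5.81e-09) for Prss58, -4.00 (SE 0.25, adjusted p = 5.81e-09) for Prss52, -3.20 (SE 0.35, adjusted p = 6.06e-06) for Prss37 and -1.71 (SE 0.25, adjusted p = 3.73e-05) for Prss55, the members of later round spermatids. For Prss23 it was -3.10 (SE 0.45, adjusted p = 4.40e-05), at 7.46 CPM or less in every library. Prss41 was the 1 member with a positive difference, 1.64 (SE 0.46, adjusted p = 0.00824). VC-T 1 was left out, and with all 3 VC-T libraries none of the 7 was called. T held 41 cells of the later round-like cluster 19 and VC-T 307, and the part of this shortage in the differences was not tested.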

How the results depend on the processing

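Over 14 comparisons, 162 of 192 alternative counts of called members stayed within 1.5 times of the value in the report, and of 726 alternatives for single called members 641 kept the call, 84 kept the direction without it and 1 turned: with free RNA subtracted, Prss58 in T against VC-T, spermatocyte-like, was at 7.00 on the log2 scale. Leaving out 1 library at a time gave 0 to 4 members for T against UC, spermatocyte-like (4 without UC 1), 5 to 7 for T against UC, spermatid-like, 0 to 2 for R against UC, spermatid-like (0 without R 1 or UC 3, 2 without UC 2), 0 to 1 for R against VC-R, spermatozoa-like (1 without VC-R 1) and 9 to 16 for spermatid-like against spermatocyte-like in UC, which with free RNA subtracted gave 8. For T against UC, spermatocyte-like, at 0 in the report, DESeq2 gave 6 members (383 genes against 95), keeping doublets 1, matching on pseudotime 4 (387 genes), pachytene clusters alone 2 and the replicate block 5 (453 genes). Keeping doublets gave 1 in T against UC, spermatogonia-like. For T against UC, spermatid-like, at 5, matched cells and the largest later round cluster each gave 2 and the largest early round cluster 0, with 254, 264 and 111 genes against 2171. For T against VC-T, spermatid-like, at 7, matched cells gave 2, and with all 3 VC-T libraries this comparison, that in spermatocyte-like cells and the difference between treatment and recovery each gave 0 members (0, 34 and 714 genes against 2679, 596 and 3587). For R against UC, spermatid-like, at 1, RLE scaling, no filter, the replicate block, either largest round cluster and leaving out the clusters of few UMIs gave 0, subtraction of free RNA 2 and early round clusters 5. Without a filter R against VC-R, spermatid-like, gave 1. The replicate block moved no other count by over 1.5 times; against VC-T it added Prss37 in spermatocyte-like cells and lost Prss41 in spermatid-like cells. RLE scaling moved the median of all genes from 0.11 to 0.30 for spermatocyte-like against spermatogonia-like cells. The causes of these shifts were not tested. The narrower sets beyond those of pachytene, early round and matched cells, and the set without clusters of few UMIs, were chosen after seeing the data. Members with 355 UMIs or fewer did not pass the filter on low counts in any comparison.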

Other observations

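Outside the germ line, Prss35 and Prss23, which encode secreted relatives of trypsin, were higher in some somatic classes than in spermatid-like cells. In R, the group with most somatic cells, Prss35 was at 108 ± 34.1 CPM (SD, n = 3) in myoid-like and 54.7 ± 7.95 CPM in Leydig-like cells, and at no more than 0.327 CPM in any germ cell class of the same libraries. Prss23 was at 36.8 ± 11.8 CPM in myoid-like cells of R, above its 7.46, 4.85 and 5.15 CPM in spermatid-like cells. The 94 UMIs of Prss35 in myoid-like cells of R came from 93, 121 and 154 cells, while the T libraries held 7, 1 and 8 myoid-like cells, so no comparison was made.

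Of the members with few UMIs, some are known from other tissues. Prss16, known from the thymus, had 41 UMIs in all kept cells, Prss57, a protease of neutrophil granules, 35, Prss8 (prostasin, of epithelia) 17 and Prss12 (neurotrypsin) 157. Prss2, a pancreatic trypsinogen, had 218 UMIs, of which the UC mean was 0.986 ± 0.332 CPM in spermatid-like cells.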
